A study of Mus musculus with 158 samples.

Results

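Single neurons in acute slices of mouse brain were compared according to how much microglial RNA their libraries held. For each cell the CPM values (a gene's reads per 1000000 reads counted in that cell) of 12 microglial genes were summed, namely Cx3cr1, C1qa, C1qb, C1qc, Csf1r, Aif1, Tyrobp, P2ry12, Trem2, Tmem119, Ctss and Fcer1g. Cells with 1000 CPM or more formed the group with microglial RNA, and cells below 100 CPM the group without it. Of 42 slice neurons, 18 were with, 20 were without and 4 lay between the thresholds and were left out. The 42 neurons came from 49 slice libraries, because 7 cells had a repeated title with an added b and were summed, and the whole series held 158 libraries. The group with microglial RNA held 11 cortical and 7 CA1 neurons and no CA3 neuron. The group without held 10 cortical, 7 CA1 and 3 CA3 neurons.

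Every slice cell came from mice of strain C57/BL6/N, was untreated and was drawn from tissue with a patch pipette. Before stranded TruSeq libraries were made, the material went through 3 rounds of aRNA (antisense RNA) amplification, and polyA RNA was sequenced. The labels give no genotype beyond the strain, no age and no animal for any cell, so the cells of a group may come from 1 or several mice. Each group therefore counts as 1 sample and no test was made. Poisson intervals cover counting error only. Binomial intervals treat the cells of a group as separate draws and do not cover differences between mice.

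Microglia are the resident macrophages of the brain. Their fine processes survey the tissue, touch neuronal cell bodies and synapses, and carry receptors for signals that neurons display or release, such as the receptor Cx3cr1 for the neuronal chemokine Cx3cl1. They are known for clearing debris and synapses by way of complement, Fc receptors and lysosomes, and their identity depends on signalling through Csf1r and on the transcription factor PU.1, the product of Spi1.

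The 12 genes chose the groups, and their values are given as a description only. Their sum ranged from 1262 to 18278 CPM with a median of 5139 in the cells with, and from 0 to 78.7 CPM with a median of 1.01 in the cells without. The cells just inside the upper threshold were CA1-14 with 1262 and RS10 with 1290 CPM, and those just outside were CA3-8 with 609 and CA1-4 with 601 CPM. At the lower threshold F7 had 78.7 CPM, just inside, and P22 lay just above 100 CPM and was left out. Of the defining microglial markers, 5 or more counts per 1000000 were found for C1qa in 12 of the 18 cells with, for Cx3cr1, Trem2 and Csf1r in 11 each and for Tmem119 in 6. Among the 19 cells without that were deep enough, Cx3cr1 was found in 1 and the other four in 0. In 10 of the 18 cells a single gene gave over 50% of the sum. Aif1 gave 95.1% of it in P15, Tmem119 92.7% in P17 and Cx3cr1 81.2% in P14. Only 3 of the 12 genes had any count in P14 and P15, and 4 in P17 and CA1_24.

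**Figure D1:**
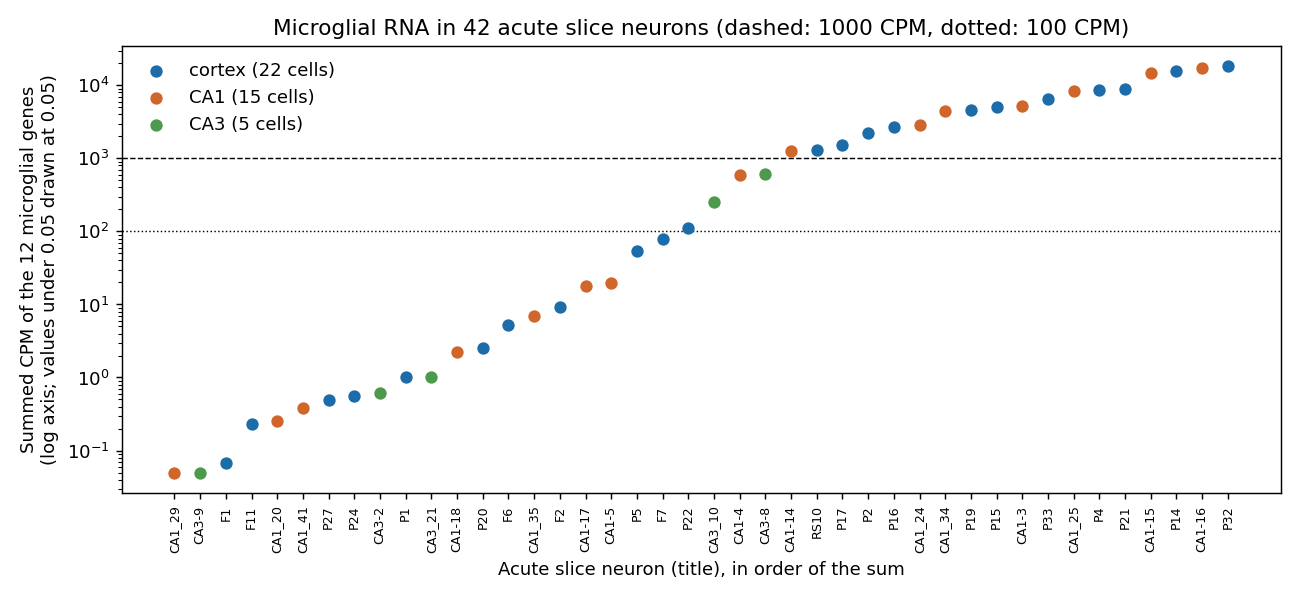
Summed CPM of the 12 microglial genes that chose the groups (vertical, log axis) for each of the 42 slice neurons (horizontal, in order of the sum), coloured by region. The 18 cells at or above the dashed line (1000 CPM) are the cells with microglial RNA, the 20 below the dotted line (100 CPM) those without, and 4 cells lie between the lines.

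The cells differed in other ways that bear on the comparison. Total counts per cell ran from 535369 to 16251918, with medians of 5061566 in the cells with and 4737416 in the cells without. After thinning to 1000000 counts the cells with showed a median of 1784 genes and those without 2072. Cell CA1_29 was too shallow for thinning, which leaves 19 cells without for every detection count. Base calls were made with version 1.8.4 in 5 and a later version in 13 of the cells with, with 6 and 12 among the cells without and both versions in 2 more. All 5 cells with a title that begins with F were in the group without, and the labels do not explain that letter. P27 (without) placed 95.7% of its counts on 50 genes, and P14 (with) 86.8%. The summed level of 20 pan-neuronal markers was 37.4 CPM in CA1_25 and 20.4 CPM in P21, 2 libraries labelled as neurons that held microglial RNA, while every cell without had at least 1680 CPM. The reads of ribosomal RNA precursor Rn45s had a median of 1.87% of counts with and 1.73% without. In cortex the medians were 2.06% and 1.73%. In CA1 they were 0.845% and 2.45%, with overlapping ranges of 0.444 to 6.55% and 0.0271 to 13.9%.

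Genes beyond the 12 were compared by 1 rule. A gene was called higher or lower where the log2 ratio of summed CPM (with over without, 1 CPM added) and that of the mean CPM of cells were both at least 1 in size, where at least 10 CPM was reached in a group, and where the share of cells in which it was detected differed by at least 20 percentage points the same way. Detected means 5 or more counts after thinning to 1000000. Among 12634 measured genes, 326 were called higher (2.58%) and 570 lower (4.51%). Within cortex 609 of 10895 were higher (5.59%) and 865 lower (7.94%), and within CA1 657 of 7777 were higher (8.45%) and 972 lower (12.5%). These shares are the background for the gene groups that follow. They were larger in the smaller groups, where fewer cells make 20 points, and the cause was not tested. Of the 326 called higher, 98 were also called higher within cortex and within CA1. Of the 570 called lower, 465 had the same direction in both and 126 were called in both. Without CA1_25, P21 and P14, the 3 cells with under 1000 CPM of pan-neuronal markers, 580 genes were called higher and 375 lower, so the excess of lower calls does not hold. With 15 cells in place of 18, 3 detecting cells in place of 4 make the 20 points. Below, these 3 are called cells with little neuronal RNA, by the 20 pan-neuronal markers alone. Other neuronal genes were not low in all of them. Synaptic receptors and scaffolds summed to 6950 CPM in P14, 2701 in CA1_25 and 97.5 in P21.

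Many genes of microglial identity and of leukocytes went with the 12, but not every list of microglial genes did. Of 16 further genes of microglial identity, 12 were measured, 11 of these had a ratio above 0 and 6 were called higher (Gpr34, Siglech, Olfml3, Selplg, Ltc4s and Lpcat2) and 0 lower. Of 20 genes of leukocytes and macrophages at large, 16 were measured, all 16 had a ratio above 0, 5 were called higher (Laptm5, Itgam, Ly86, Cd68 and Cd52) and 0 lower. The median log2 ratios were 4.30 and 5.21, against -0.08 over all measured genes. Measured needs at least 10 counts over both groups, so members near 0 in the cells without pass mainly through the cells with. The ratios above 0 and these medians were therefore partly set in advance and are description only. These lists are read beside the rule rather than apart from it, because the same cells carry both sets of genes. Whether the reads come from microglial RNA in the pipette, from a microglial process or from expression by the neuron itself was not tested, and more such material and more RNA within it cannot be told apart. Of 10 microglial channels and purine receptors, 4 were measured, 1 had a ratio above 0 and 3 below, and 0 were called. Their median log2 ratio was -0.49, and in cortex 1 of 4 measured was called lower. Of 12 Toll-like receptors and partners 1 was measured, at -0.15, and 0 were called.

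Laptm5, a lysosomal membrane protein of blood cells and microglia (chr4:130912890-130936148, GRCm38.p6), ranked first among the named genes, which were chosen by the difference in detection. It was found in 14 of 18 cells with (77.8%, 95% exact binomial interval 52.4 to 93.6) and in 2 of 19 without (10.5%, 1.3 to 33.1). These intervals describe a gene picked for this difference and are no test of it. Single cells with ran from 0 to 8124 CPM with a median of 103, and cells without from 0 to 6.4 with a median of 0. All 14 detecting cells lay above every cell without, and 4 cells with had no count, so the groups overlap only at 0. Summed over cells the level was 962 CPM (95% Poisson interval 956 to 967) with and 0.404 (0.291 to 0.547) without. The log2 ratio was 8.16 in cortex and 9.93 in CA1.

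Ly86, a partner of a Toll-like receptor family member, reached 4106 CPM with and 0.377 without, and was detected in 8 of 18 against 0 of 19 cells. Selplg, the P-selectin ligand, was likewise detected in 8 of 18 against 0 of 19, with 43792 counts in the cells with and 1 in the cells without. The receptor gene Gpr34 was detected in 8 and 0 cells and the lectin gene Siglech in 6 and 1. Olfml3, a secreted protein of microglia, had 12093 counts with and 0 without, which makes it at least 3466-fold higher when 3 counts are allowed for the whole group at 0. Lpcat2, which remodels membrane lipids, was detected in 5 cells with and 1 without (CA1-5, at 45.7 CPM), and within CA1 its log2 ratio was -1.02. Itgam, the alpha chain of complement receptor 3, was detected in 8 cells with and 1 without. Cd68, a macrophage lysosomal protein, was detected in 4 of 18 and 0 of 19, and its call is lost when P2, P16, P21 or CA1-16 is left out.

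Single cells held only some of these 36 genes. The number detected ran from 0 to 18 with a median of 5 in the cells with, and from 0 to 2 with a median of 0 in the cells without. At least 3 were found in 14 of the 18 cells with and in 0 of 19 without. The exceptions among the cells with were P14 with 0 genes, P15 and P17 with 1 each and P21 with 2, and in each of these a single gene gave over 50% of the rule sum. P2 had the most, 18 genes, at a rule sum of only 2203 CPM. The summed level of the 36 genes had a median of 1875 CPM with and 3.1 without. The ranges overlap, since F7 reached 1058 CPM in the group without, nearly all of it Fcrls at 1050 CPM. Fcrls, an Fc receptor-like scavenger receptor, was therefore not called, at 77 CPM with and 87.9 without, although it was detected in 6 cells with and 1 without.

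Of the genes that control the myeloid program, 10 of 11 were measured and 0 were called. Spi1, which encodes PU.1, was detected in 2 of 18 cells with and 0 of 19 without, at 3.34 and 0.0193 CPM. Runx1 was detected in 1 cell, P21, at 1272 CPM, and Irf8 in 1 cell, P2, at 10.3 CPM. At these depths the levels of most cells lie below detection.

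**Figure D2:**
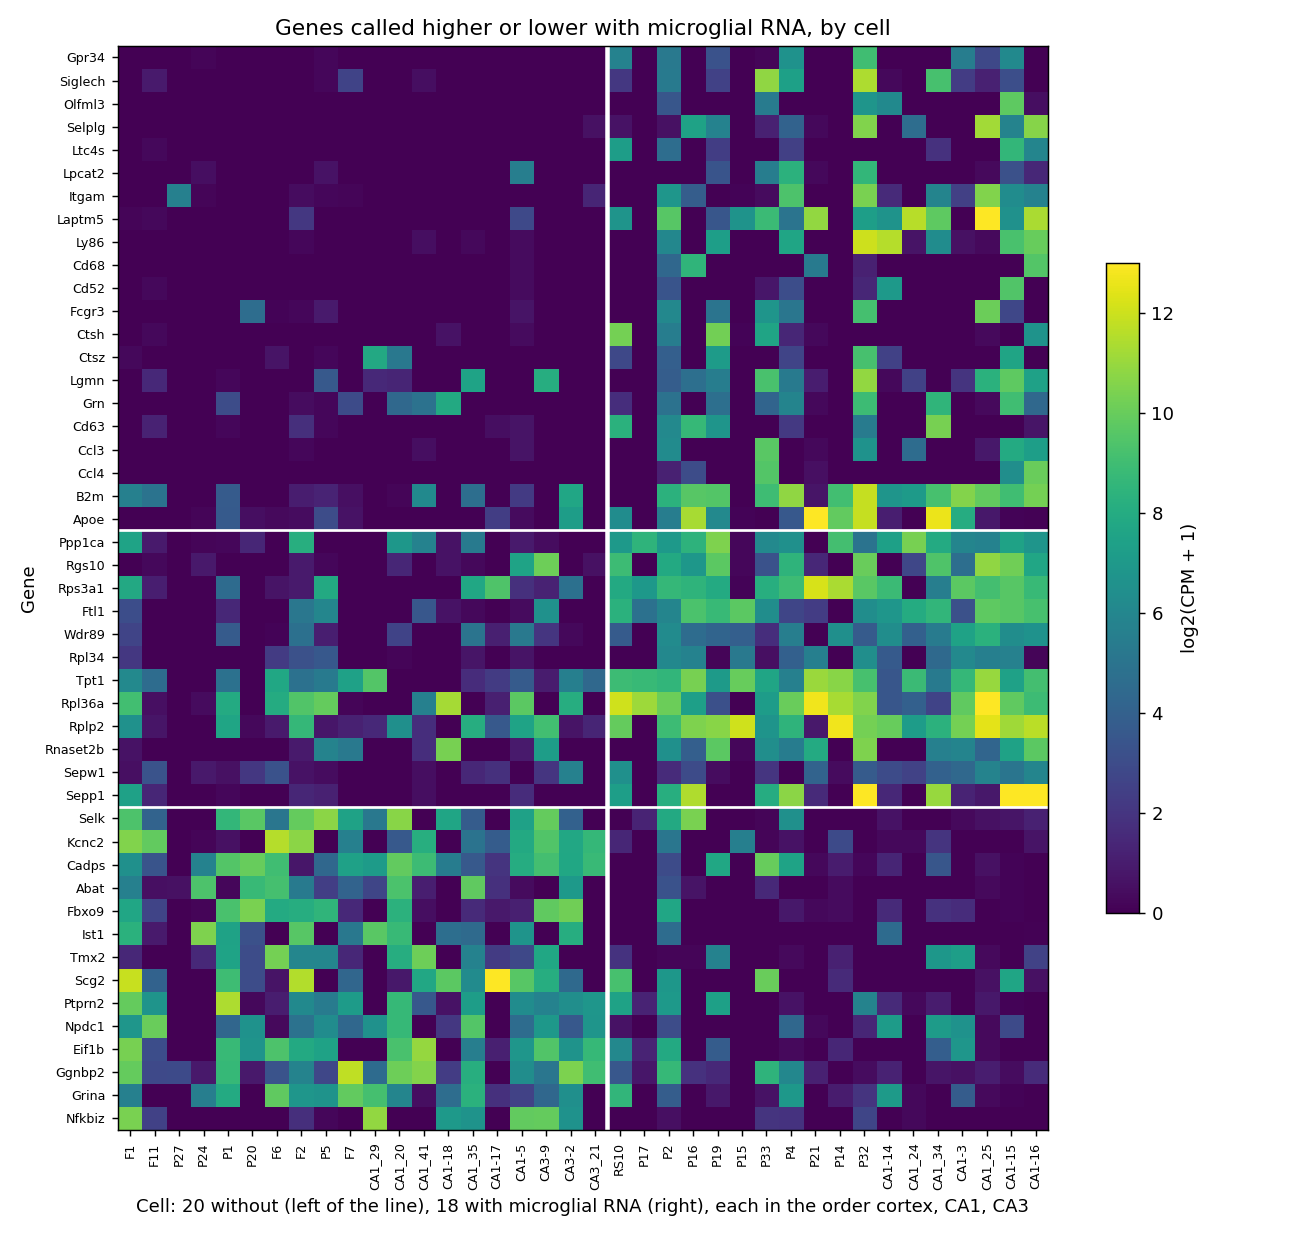
Level of each gene (rows, log2 of CPM + 1) in each cell (columns), with the 20 cells without microglial RNA left of the white line and the 18 with it to the right. The top block holds members of the microglial, immune and lysosomal lists called higher, the middle block the other named genes called higher and the bottom block the named genes called lower. Laptm5 is bright in 14 of 18 cells with, each cell lacks many of the other genes, and P14, P15 and P17 have almost none of the top block.

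Signs of other immune cells were few. Of 10 markers of border macrophages, 0 were called. Cd163, Pf4 and Folr2 had 0 counts in both groups and Mrc1 had 9 counts with and 3 without. Their summed level ran from 0 to 37.1 CPM with and from 0 to 154 without. Of 10 markers of blood leukocytes 0 were called. Ly6c2, S100a9, Cd3e, Nkg7 and Plac8 had 0 counts in both groups, Ccr2 had 2 counts in each, and the summed level reached 5.53 CPM with and 72.8 without. The sum of haemoglobin and red cell genes reached 2156 CPM with and 6127 without, with medians under 1 CPM in both.

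Effector genes were called in part. The receptors that bind antibody and signal through ITAM motifs gave 1 call among 10 measured of 17, Fcgr3, detected in 7 of 18 and 1 of 19 cells. Of 8 complement genes 4 were measured and 0 were called. Cfp, the complement factor properdin, was detected in 2 and 0 cells, at up to 972 CPM in CA1_34. C3, the central component, had 3 counts with and 5 without. B2m, the invariant chain of MHC class I (chr2:122147687-122153082), was the 1 call among 5 measured of 8 genes of that pathway. It ran from 0 to 3738 CPM with a median of 519.5 with, and from 0 to 209 with a median of 0.293 without. Of the cells with, 12 lay above all cells without. In CA1 all 7 cells with had 109 CPM or more and all 7 without had 70.5 or less. B2m is among the genes picked for their detection difference, and the share of all CA1 genes that part the cells so is not given here. CA1-4, the CA1 cell between the thresholds, had 0.762 CPM. The class I heavy chain H2-K1 was measured at 46.3 CPM with and 0 without but in 3 cells only, and H2-K1 and H2-D1 are close copies whose reads may be shared. Of 7 MHC class II genes 1 was measured and 0 were called, and Cd74 had 1 count with and 4 without.

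Cytokine genes were found in few cells. Of 16 chemokines and cytokines 8 were measured and 2 called higher. Ccl3 was detected in 6 of 18 and 0 of 19 cells and Ccl4 in 4 and 0, and the call of Ccl4 is lost without P16, P33, CA1-15 or CA1-16. Il1b had 0 counts in both groups and Tnf 16 with and 1 without. Among lysosomal genes all 19 were measured, 10 had a ratio above 0, 5 were called higher and 1 lower. In cortex 6 of 19 were called higher and 2 lower, with a median log2 ratio of 0.05. In CA1 3 of 18 were called higher and 3 lower, with a median of 2.23. Over all slice neurons the 5 called higher were the proteases Ctsh, Ctsz and Lgmn, the growth factor precursor Grn and the tetraspanin Cd63. The call of Ctsz is lost without P32 and at the lower depth of 500000. Ctsh reached 1242 CPM with, in RS10, and 0.563 without. Lgmn, asparaginyl endopeptidase, was detected in 10 of 18 and 3 of 19 cells, with a log2 ratio of 3.82. The protease gene Tpp1 was the 1 called lower, at 37 and 94.3 CPM, and that call is lost with detection at 1 count and without the cells with few genes or with little neuronal RNA. Apoe, the lipid carrier of astrocytes and activated microglia, was the 1 call among 9 measured genes of the disease-associated program. It was detected in 10 of 18 and 3 of 19 cells and reached 14689 CPM in P21, while no cell without exceeded 152 CPM.

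The promoters of 4 genes are shown to set these genes beside PU.1, which binds purine-rich sites such as GAGGAAGT. Each line gives the 250 bases before the RefSeq start site in GRCm38.p6, 5′ to 3′ on the gene's strand, in lower case with any match to GAGGAAGT or its reverse complement ACTTCCTC in capitals. Itgam and B2m are shown as immune genes called higher, Adora3 as a microglial gene with a match and Rpl36a as a ribosomal protein gene called higher that has 2.
Itgam: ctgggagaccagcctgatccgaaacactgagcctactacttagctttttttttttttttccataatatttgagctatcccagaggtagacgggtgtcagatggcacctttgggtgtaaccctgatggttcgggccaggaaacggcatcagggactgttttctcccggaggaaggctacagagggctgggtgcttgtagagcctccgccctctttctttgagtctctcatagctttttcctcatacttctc
B2m: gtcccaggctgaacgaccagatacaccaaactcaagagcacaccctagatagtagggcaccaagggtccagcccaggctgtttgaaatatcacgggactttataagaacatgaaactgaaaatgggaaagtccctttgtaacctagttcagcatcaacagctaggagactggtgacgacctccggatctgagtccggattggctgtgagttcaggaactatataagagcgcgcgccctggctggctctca
Adora3: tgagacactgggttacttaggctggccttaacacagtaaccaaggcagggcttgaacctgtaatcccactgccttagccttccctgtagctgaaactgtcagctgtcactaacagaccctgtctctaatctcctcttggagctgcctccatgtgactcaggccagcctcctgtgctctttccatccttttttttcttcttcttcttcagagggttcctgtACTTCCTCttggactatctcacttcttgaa
Rpl36a: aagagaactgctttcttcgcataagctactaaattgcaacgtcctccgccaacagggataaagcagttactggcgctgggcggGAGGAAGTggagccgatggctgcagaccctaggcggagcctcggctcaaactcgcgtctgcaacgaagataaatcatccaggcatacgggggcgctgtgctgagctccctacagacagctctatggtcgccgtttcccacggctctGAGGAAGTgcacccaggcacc
These windows lie at chr7:128062390-128062639 (plus strand), chr2:122147437-122147686 (plus), chr3:105904171-105904420 (plus) and chrX:134585404-134585653 (plus). Itgam and B2m have no exact match, and other forms of the site were not searched. The match in Adora3, an adenosine receptor gene measured at 2.22 CPM with and 0.0385 without and not called, begins at base -30 from the start site on the opposite strand, and those in Rpl36a at -167 and -21. Over windows of 300 bases (250 before to 50 after the start), 997 of 27025 genes held the motif (3.69%). It was found for 13 of the genes called higher that had a promoter in the table (4.92%) and for 14 of 437 called lower (3.2%). Among the 36 genes of the microglial and leukocyte lists 28 had a promoter and 4 held it (14.3%), but of the 8 called members with a promoter 0 held it. A match describes these letters only.

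Genes for cytosolic ribosomal proteins gave the most calls of any list. All 21 genes on the list were measured, all 21 had a ratio above 0 and 13 were called higher, with a median log2 ratio of 2.41. In cortex 20 of 21 were above 0 and 12 were called, and in CA1 19 of 21 and 13. Taking every gene named as a cytosolic ribosomal protein, a set drawn after the values were seen, 52 of 83 measured were called higher (62.7%) and 0 lower, beside 2.58% of all genes. Among the 98 genes called higher in all slice neurons, in cortex and in CA1, 25 were ribosomal protein genes and 6 were members of the microglial and leukocyte lists. Ribosomal protein genes have many near-identical processed copies, so the count of any 1 of them is uncertain.

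The summed level of the 21 genes ran from 5790 to 70754 CPM with a median of 18755 in the cells with, and from 17.3 to 12096 with a median of 3573 in the cells without. Of the cells with, 12 of 18 lay above every cell without, and the other 6 overlapped with the upper part of that group. The highest values were 70754 in P21, 60567 in CA1_25 and 56635 in CA1-15. Of these P21 and CA1_25 held 20.4 and 37.4 CPM of the pan-neuronal markers, whereas CA1-15 held 8466 CPM. Leaving out the 3 cells with under 1000 CPM of pan-neuronal markers, 14 of the 21 genes were called. The 4 cells between the thresholds had 3347 (P22), 3532 (CA3_10), 32053 (CA1-4) and 25391 CPM (CA3-8). The 2 with the higher rule sums had the higher ribosomal sums, but this order was not general. Among the cells with, P32 had the highest rule sum, 18278 CPM, and a ribosomal sum of 23762 CPM. Sepp1, also called higher, was at 835, 1224, 52.7 and 0 CPM in the same 4 cells. Whether the ribosomal reads come with the microglial material was not tested.

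Rplp2, an acidic protein of the large subunit stalk, ran from 0 to 6656 CPM with a median of 1131 with and from 0 to 526 with a median of 1.7 without, and 11 cells with exceeded all cells without. Rps3a1 was detected in 16 of 18 and 6 of 19 cells, with medians of 417 and 0.742 CPM. Rpl36a was detected in 17 and 9 cells, with medians of 897 and 0.851 CPM. Its call is lost among cells with version 1.8.4 base calls alone. Rpl34 was detected in 11 and 2 cells, at up to 84.1 and 11.1 CPM. Tpt1, the translationally controlled tumour protein, was detected in all 18 cells with and in 10 of 19 without, with medians of 449 and 16.2 CPM. The call of Tpt1 is lost with version 1.8.4 base calls alone too. The nuclear genes of the respiratory chain, another group of abundant housekeeping genes, gave 0 calls among 21 and a median log2 ratio of 0.21.

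The other named genes called higher have broad functions. Ftl1, the ferritin light chain that stores iron, ran from 0 to 876 CPM with a median of 181 with and from 0 to 94.9 with a median of 0 without. In CA1 its 7 cells with had 8.24 to 876 CPM and its 7 cells without 0 to 10.6, an overlap of small values only. Ferritin genes also have processed copies, so its count is uncertain. Rgs10, a regulator of G protein signalling that is also abundant in microglia, was detected in 13 of 18 and 2 of 19 cells. Cells with reached 1864 CPM and 1 cell without, CA3-9, had 1119 CPM, so the groups overlap at high values too. In cortex it reached 1050 CPM with and no more than 0.903 without. Ppp1ca, a catalytic subunit of protein phosphatase 1, was detected in 16 and 5 cells, and Wdr89 in 15 and 6. Rnaset2b, a lysosomal ribonuclease gene with a close copy, was detected in 12 and 4 cells, and its call is lost without P32. Sepp1, the secreted selenium carrier, was detected in 9 and 1 cells, at up to 11599 and 169.6 CPM, with a log2 ratio of 6.91. Sepw1, a small selenoprotein gene, was detected in 10 and 2 cells at up to 90 and 51.5 CPM, and its call is lost among P cells and with version 1.8.4 base calls alone.

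**Figure D3:**
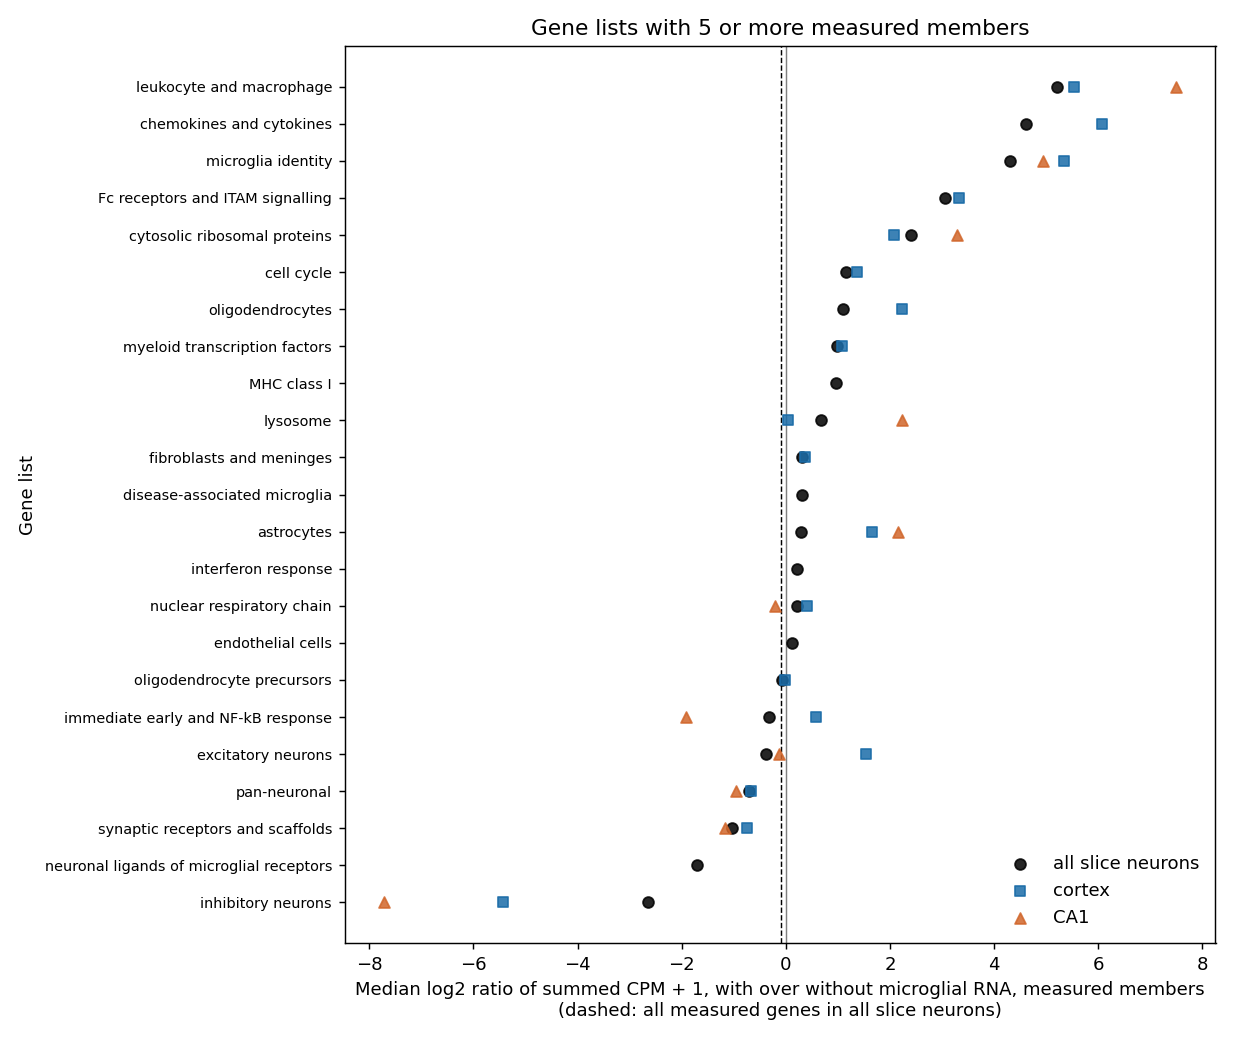
Median log2 ratio of summed CPM + 1, with over without microglial RNA (horizontal), over the measured members of each gene list with 5 or more measured members (vertical), in all slice neurons, cortex and CA1. The dashed line is the median of all measured genes in all slice neurons (-0.08), and leukocyte, microglial identity and ribosomal protein lists lie to its right while inhibitory neuron markers lie farthest to its left.

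Neuronal RNA was present in most cells of both groups. The 20 pan-neuronal markers summed to 20.4 to 20237 CPM with a median of 6272 in the cells with, and to 1680 to 26466 CPM with a median of 9748 in the cells without. The groups overlap over nearly all of that range, apart from P21, CA1_25 and P14, which had 865 CPM. Of the 20 markers 6 had a ratio above 0, 0 were called higher and 3 lower (Nefl, Tubb3 and Uchl1), with a median log2 ratio of -0.71. The synaptic vesicle fusion gene Snap25 was detected in 14 of 18 cells with and 18 of 19 without, at medians of 724 and 839 CPM. The call of Tubb3, neuronal tubulin, is lost without the F cells, without CA3-9 alone, among P cells, with detection at 1 count and at the lower depth of 500000. That of Uchl1, a neuronal deubiquitinase, is lost without the F cells or without F11 alone, and its ratio turns to a log2 ratio of 0.11 among P cells alone. Without the 3 cells with little neuronal RNA 2 of the 20 were called lower.

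Markers of inhibitory neurons were the list with the lowest median. Of 13 genes 11 were measured, 0 were called higher and 3 lower, namely Gad1 and Gad2, which make GABA, and the vesicular transporter Slc32a1. Gad1 ran from 0 to 111 CPM with a median of 0.306 with and from 0 to 8713 with a median of 1.94 without, and Gad2 reached 1.62 with and 5801 without. The summed level of the 13 genes was 1058 CPM or less in every cell with. In the cells without it was highest in F1 (11886), CA1_35 (10691), F6 (10461), CA1_20 (10375) and F2 (4238), followed by F7 (1146), and the remaining 14 were below 1000 CPM. The title letter moves with this result, since 4 of the 5 F cells are among these 6 and none is in the group with, and its part in the result was not tested. Without the F cells 1 of the 9 measured markers was called lower, and among P cells alone 0 of 3. In CA1, which has no F cell, 4 of 7 were called lower, and 2 of the 7 cells without (CA1_20 and CA1_35) carried most of the counts. In cortex 5 of 7 were called lower, among them Lhx6 and Pvalb.

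Markers of excitatory neurons gave calls in both directions. Over all slice neurons 0 of 9 measured were called higher and 1 lower, Neurod2, whose ratio turns to 1.06 on the log2 scale when the upper threshold is 500 CPM and to 2.13 among P cells, and whose call is also lost without CA1-17. In cortex 2 of 8 were higher (Nrgn and Tbr1) and 1 lower (Camk2a), with medians of 1426 CPM with and 278 without for the summed level, and again all F cells were without. In CA1 1 of 8 was higher (Slc17a7) and 2 were lower. Among synaptic receptors and scaffolds 2 of 18 were called lower (the AMPA receptor subunit gene Gria3 and the GABA-A receptor subunit gene Gabrb2) and 0 higher. Both calls are lost without the F cells and without the 3 cells with little neuronal RNA, and Gabrb2 turns to 1.08 among P cells. That of Gria3 is also lost under both other scalings and without F11 or P24, and that of Gabrb2 without F7.

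**Figure D4:**
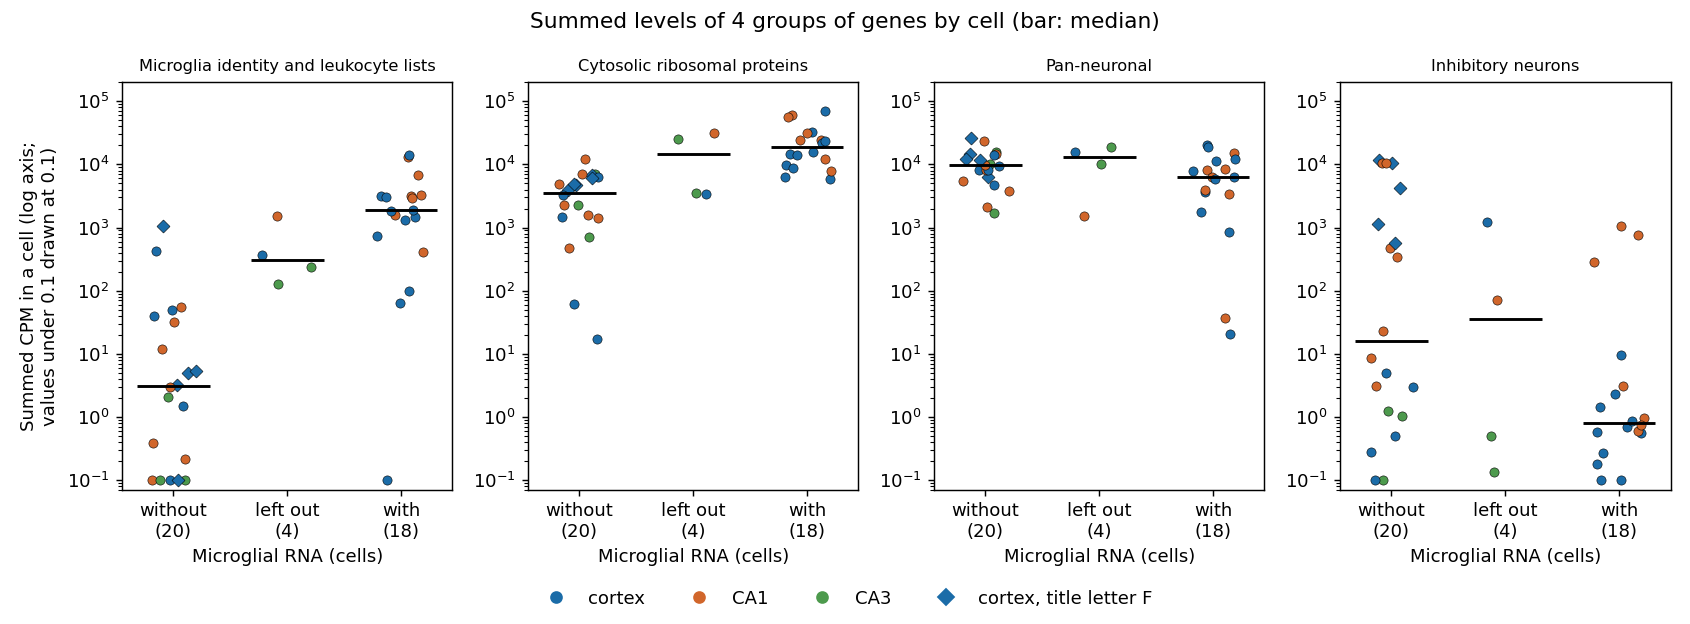
Summed CPM in each cell (vertical, log axis, the bar is the median) for the 36 genes of the microglial identity and leukocyte lists, the 21 ribosomal protein genes, the 20 pan-neuronal and the 13 inhibitory markers, by group and region, with F cells as diamonds. Medians with and without are 1875 and 3.1, 18755 and 3573, 6272 and 9748, and 0.803 and 15.6 CPM.

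Genes that link neurons to microglia were compared on both sides. Of 5 neuronal ligands of microglial receptors, all measured, 0 were called higher and 1 lower. Cx3cl1, the ligand of Cx3cr1, was not called, at 357 CPM with and 379.7 without and detected in 11 of 18 and 13 of 19 cells. Cd200, a neuronal surface protein that restrains microglia, was the 1 called lower. It was detected in 0 of 18 cells with (up to 18.5% by the exact interval) and 6 of 19 without, at up to 2.22 and 418 CPM. In CA1 it was near 0 in both groups, at 0.208 and 0.43 CPM, and its call is lost among cells with the later base calls. Of 6 receptors for neuronal ligands 3 were measured and 1 called higher, Tgfbr1, at up to 5047 CPM in P21, and that call is lost without P2, P4, P21, CA1-15 or CA1-16.

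The named genes called lower have varied functions. Nfkbiz, a nuclear regulator of NF-kB targets, was detected in 0 of 18 cells with and 8 of 19 without, at up to 5.62 and 1870 CPM. Its call is lost, and its log2 ratio turns to 0.91, among P cells. Abat, which breaks down GABA, was detected in 1 and 10 cells, with highest values of 8.55 and 897 CPM, and stayed lower under all alternatives run, between -7.76 and -5.27 on the log2 scale. Ist1, a part of the ESCRT membrane-cutting machinery, was detected in 2 and 11 cells and stayed between -6.92 and -4.21. Cadps, which primes dense-core vesicles for release, was detected in 6 and 16 cells, with medians of 0.199 and 156 CPM. Scg2, a granin of the same vesicles, was detected in 4 and 13 cells, and Ptprn2, a membrane protein of them, in 4 and 13. The ratio of Scg2 turns to 0.14 among P cells, where the call of Ptprn2 is lost too.

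Kcnc2, a fast potassium channel gene typical of inhibitory neurons, was detected in 3 of 18 and 13 of 19 cells and reached 47.3 CPM with and 3031 without. Its highest cell was F6, and among P cells its log2 ratio turns to 3.8. Selk, an endoplasmic reticulum selenoprotein gene, was detected in 3 and 14 cells with medians of 0.193 and 103 CPM. Eif1b, a translation start factor, was detected in 5 and 14 cells with medians of 0.128 and 109 CPM. Grina was detected in 5 and 14 cells, Npdc1 in 4 and 13, Tmx2, a thioredoxin-like membrane protein, in 3 and 12, and Fbxo9, a ubiquitin ligase subunit, in 1 and 10. The call of Npdc1 is lost with the upper threshold at 500 CPM and with version 1.8.4 base calls alone. Ggnbp2 was detected in 5 and 14 cells, and its ratio turns to 0.42 among P cells. Its call is also lost with detection at 1 count and with version 1.8.4 base calls alone. In every one of these genes the groups overlap, because some cells without had no count.

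Early response genes did not move one way. Of 20 genes 19 were measured, 1 was called higher (Jund) and 4 lower (Nfkbiz, Fos, Ier3 and Klf6). The call of Jund is lost without P21, under each base calling version alone, at the lower depth of 500000, with detection at 1 count, and without the cells with few genes or with little neuronal RNA. The call of Fos is lost without F2 and its ratio turns to 1.03 among P cells. That of Klf6 is lost under both other scalings and when any of 19 cells is left out, and its ratio turns to 0.05 with version 1.8.4 base calls alone. Markers of other brain cells were found in both groups. Of 20 astrocyte markers 18 were measured and 2 called higher, the glycolytic enzyme Aldoc, detected in 10 of 18 and 3 of 19 cells, and the gap junction protein Gja1, detected in 6 and 1. The call of Aldoc is lost when cells up to 1000 CPM count as without and with version 1.8.4 base calls alone. The call of Gja1 is lost without P16, the cell with the highest astrocyte sum in that group (14799 CPM), and its ratio turns to -1.19 with version 1.8.4 base calls. The summed astrocyte level was 0.562 to 14799 CPM with, with a median of 949, and 0 to 95103 CPM without, with a median of 1395. Of oligodendrocyte markers 8 were measured, 6 of these had a ratio above 0 and 0 were called. Their summed level was nonetheless higher at the median in the cells with, at 180.4 against 1.86 CPM, with 167 against 1.86 in cortex and 457 against 0.563 in CA1. The ranges overlap, reaching 13227 CPM with and 9756 without. The part of oligodendrocyte RNA in the other differences was not tested. Of endothelial markers 0 of 5 measured were called.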

How the data were processed

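The values, as deposited by the authors, are unnormalized read counts, with 21956 genes in rows and 158 libraries in columns. Per the submitters' processing notes the authors used bcl2fastq 1.8.4 or bcl2fastq2 2.17, STAR and HTSeq with mm10 (GRCm38). For the other versions, the annotation and the strand setting the sources used here give nothing, so reads of overlapping genes cannot be told apart.

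Cells were grouped from the labels and the 12-gene sum, and repeated titles were summed. Gene symbols were matched to RefSeq (GRCm38.p6), and 16 of 427 list genes were not analysed here. A few more genes are not reported here and were left out of the lists, the counts of calls and the figures, but not of the totals. A gene counted as measured where the 2 groups summed to at least 10 counts and at least 3 cells had one. Levels are summed CPM with exact Poisson intervals, detection shares have exact (Clopper-Pearson) binomial intervals, both at 95%. Named genes were the 14 per direction with the largest detection difference among calls of the same sign in cortex and in CA1, predicted genes passed over, plus list members. The members and the 32 lists were chosen with earlier results of these data known. The 7 repeated cells had correlations of 0.945 to 0.997 between their libraries. The calling procedure was also run on simulated data, and no result here rests on the outcome. The simulated cells shared a common mean profile apart from planted changes, without the differences of region and cell content seen here. Python 3.11.15 (numpy 2.4.6, pandas 2.3.3, scipy 1.17.1, matplotlib 3.10.9) was used. Size factors of edgeR 4.0.16 (TMM) and DESeq2 1.42.0 in R 4.3.3 served as scaling alternatives, with no count test. Other alternatives were filters, pseudocounts, thresholds, depths, base calling versions and left-out cells.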

Additional observations from a re-analysis of the deposited data

Results flagged for a closer look

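In 7 of 39 comparisons, each of 1 quantity within a group of 4 to 10 cells, 1 cell lay far from the others by a gap rule. The nominal rate of that rule, about 1 in 20, assumes separate groups. These comparisons share cells, so their count cannot be set against that rate. Among the 7 CA1 cells with microglial RNA, CA1_25 placed 49.6% of its counts on 50 genes (others 28.2 to 36.1%). The same cell had a log2 summed CPM of pan-neuronal markers of 5.26, where the others had 11.7 to 13.9. CA1-3 in that group had 2.61 for the leukocyte and macrophage list against 9.98 to 13.2. Among the 10 cortical cells without, F7 had 10 on the log2 scale for the microglial identity list against 0 to 3.84, nearly all of it Fcrls. Among the 7 CA1 cells without, CA1-5 had 5.58 for that list against 0 to 1.53, nearly all of it Lpcat2. P27, among the 10 cortical cells without, had 16.5 for astrocyte markers against 8.31 to 12.5, mostly Slc1a2 at 91515 CPM, and 2.57 for synaptic receptors and scaffolds against 12.1 to 14.3.

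The cultured cells of the series, which enter no comparison here, also included libraries with the 12 microglial genes at 1000 CPM or more. These were 4 of 86 cultured cortical astrocytes, with a highest sum of 11140 CPM, and 4 of 15 cultured cortical neurons, with a highest sum of 1954 CPM. No cultured hippocampal neuron reached it (0 of 8, highest sum 9.53 CPM).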

How the results depend on the processing

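No paired analysis was possible because the labels tie no cells to each other and no test was made. Counts of called genes stayed within 1.5 times of the reported ones under both other scalings, edgeR's and DESeq2's, which shift the log2 ratio of a gene, before 1 CPM is added, by 0.21 and 0.22 (slice), -0.08 and -0.04 (cortex) and 0.58 and 0.79 (CA1). The median log2 ratio of all measured genes went from -0.36 to -0.03 and 0.09 in CA1 and moved by under 0.1 in slice and in cortex. The counts depend on how many cells make 20 points: 2 of 10 suffice, 3 of 11 are needed, and 4 of 18. With a detection difference of 10 points, higher and lower calls were 1089 and 1340 (slice), 1289 and 1663 (cortex) and 1334 and 1768 (CA1). With base calls of version 1.8.4 alone they were 1235 and 990 (slice), and 1105 were higher in cortex. With the later version alone 1605 were lower in CA1. With P cells alone they were 1506 and 1062, for slice as for cortex. In cortex 528 were lower when cells up to 1000 CPM counted as without. There 1144 were higher without P16, in which more of the astrocyte than of the pan-neuronal markers were detected. In CA1 1468 were lower with the lower threshold at 10 CPM. Chosen after seeing the data were settings without F cells (1032 higher in cortex), without cells with few genes (1122 higher in cortex, 1738 lower in CA1) and without cells with little neuronal RNA (580 and 375 in slice, 1228 and 556 in cortex). Leaving out 1 cell at a time gave 216 to 391 higher and 461 to 703 lower in slice, 593 to 1272 and 603 to 1392 in cortex, and 466 to 822 and 886 to 1764 in CA1. The count moved by over 1.5 times without P2 (slice higher, cortex lower), without RS10, P17, P16, P19, P15, P33, P4, P21, P14 or P32 (cortex higher), and without CA1_41, CA1-18 or CA1-17 (CA1 lower). Of the named genes' log2 ratios, these reversed among P cells: Kcnc2 3.80, Scg2 0.14, Ggnbp2 0.42, Nfkbiz 0.91, Fos 1.03, Uchl1 0.11, Neurod2 2.13, Gad1 0.07 and Gabrb2 1.08. With version 1.8.4 alone Klf6 was 0.05, Uchl1 0.57 and Gja1 -1.19, without cells with few genes Uchl1 was 0.05, and with the upper threshold at 500 CPM Neurod2 was 1.06. The cause of the changes under these settings was not tested. CA1 with version 1.8.4 alone had 2 cells in each group and was not run, and CA1 has no P cell. No test, animal or replicate stands behind any difference, and genes at a few CPM lie below detection in single cells.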

Other observations

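Some genes outside the lists were called higher over all slice neurons, in cortex and in CA1, and are named here after their values were seen. Mpeg1, a pore-forming protein of macrophages, was measured at 519 CPM with and 0 without and detected in 5 of 18 and 0 of 19 cells. Vamp8, a vesicle fusion protein of lysosomes and granules, was detected in 7 and 0 cells, the phosphatase gene Ptpn18 in 7 and 0, the secreted ribonuclease gene Rnase4 in 6 and 0 and the G protein subunit gene Gng5 in 6 and 0.

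Arpc1b, a subunit of the Arp2/3 complex that branches actin filaments, was measured at 490.4 CPM with and 0.78 without and detected in 6 and 1 cells. Arpc2, another subunit, stood at 1181 and 125 CPM and was detected in 13 and 8 cells. Capzb, a capping protein, stood at 1499 and 56.3 CPM, and Brk1, a part of the WAVE complex, at 614 and 232 CPM, each detected in 12 and 6 cells.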
